A study of Homo sapiens with 12 samples.

Results

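The genes described here lie at the distal end of the long arm of human chromosome 4. They are the protein-coding genes that start within the last 15.2 Mb of chromosome 4 in GENCODE release 29 on GRCh38 and that had at least 10 raw counts in 3 or more libraries. Of the 49 protein-coding genes annotated there, 32 met this rule, out of 58288 gene IDs in the count table and 12185 protein-coding genes that passed the same count limit. Of the other 17 genes, 9 had no count in any library and 8 had at least 1 count but too few, and 31 of the 32 passed the filter of the statistical model, the exception being ASB5. The interval was chosen because its genes were lower in long-term FLCN-knockdown cells, so the values of that comparison are given below as a description, without a test.

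The RNA came from HK2 cells, an immortalised human line derived from the proximal tubule of the kidney. All 12 libraries carried an shRNA, either against FLCN, the tumor suppressor that is lost in Birt-Hogg-Dubé syndrome, or a nontarget control. Cells were harvested at fewer than 30 passages (short-term) or, by the labels, after 120 passages (long-term; the study's methods state a lower limit, counted from clonal selection), which gave 4 groups of 3 libraries, nontarget and FLCN knockdown at each of the 2 ages. Where 3 values are given for a group, they follow the replicate numbers. The study's methods describe clonal selection, and the sources used here do not say which clone gave which library, so that an effect of the shRNA and a difference between clones cannot be told apart. Nothing in the labels says how separate the replicate cultures were, and the p-values measure the spread between these libraries only.

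Library totals were 5825779 to 8991051 counts. FLCN itself was lower in short-term knockdown (log2 fold change -1.29, SE 0.174, adjusted p = 1.12e-04, edgeR quasi-likelihood test) and had a log2 fold change of -0.68 (SE 0.173) in the long-term comparison. Epithelial and mesenchymal genes known from HK2 cells were present in every library, with KRT8 at 1457 to 2587 and VIM at 809 to 1150 CPM (counts scaled to the size of the library), whereas 6 of 8 proximal tubule markers were at or near 0: over all libraries LRP2 had 0 counts, ANPEP 3, AQP1 7, SLC34A1 11, PAX2 19 and CUBN 29. The other markers, GGT1 (27.9 to 77.5 CPM) and MME (34.5 to 89.6 CPM), were present in every library. The list summed to 90.8 to 101 CPM without and 131 to 144 CPM with knockdown in short-term cells, and to 67.9 to 87.2 CPM without and 149 to 157 CPM with knockdown in long-term cells. Markers of blood cells (PTPRC), thick ascending limb (UMOD) and podocytes (NPHS1) had 0 counts, AQP2 of the collecting duct had 1 and PECAM1 of endothelium had 19. COL1A1, made by fibroblasts, ranged from 13.4 to 37.2 CPM, and PDGFRB, a gene of mesangial cells and fibroblasts, ranged from 0.347 to 9.32 CPM and was lower in long-term knockdown (log2 fold change -3.10, SE 0.389). Summed over the 7 markers of other cell types, 3 of them at 0, the level was 22.3 to 31.6 CPM in short-term nontarget, 24.7 to 40.9 in short-term knockdown, 23.1 to 31.7 in long-term nontarget and 13.8 to 27.0 CPM in long-term knockdown libraries, and its part in the values below was not tested. In bulk RNA, fewer cells that express a gene and less RNA per cell cannot be told apart.

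The end of a chromosome arm is bounded by subtelomeric sequence, and the genes in front of it share a position rather than a pathway. The distal part of 4q carries genes as different as the double-stranded RNA sensor TLR3, the atypical cadherin FAT1, the mitochondrial ADP/ATP carrier SLC25A4 and the lymphatic growth factor gene VEGFC. The most distal gene measured here, FRG1, is named after the region linked to facioscapulohumeral muscular dystrophy, which sits at this chromosome end.

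Because the genes are neighbours that were low together, the sequence before each start site was searched for letters they might share. RefSeq promoters on GRCh38.p14 were found for 30 of the 32 genes, and the 250 bases before the start were searched on both strands for the letters GGGCGG of the GC box, CACGTG of the E-box, CCAAT of the box of that name, and TATAAA, which make up the TATA box. The GC box was present in 22 of the 30 (73.3%), against 69% of 9720 protein-coding genes that passed the count limit and 42.6% of all 35116 promoters of that length, which include noncoding genes. The CCAAT box was present in 13 (43.3%, against 35.0% and 32.0%), the E-box in 4 (13.3%, against 9.09% and 6.34%) and the TATA box in 3 (10%, against 4.86% and 10.7%). The median number of CG dinucleotides was 25.5, with a range of 2 to 41, against 21 and 11. These are counts of letters and not of bound sites, and 4 of the matches overlapped the next one. The windows of RWDD4 and TRAPPC11 overlap on opposite strands, and the same CCAAT box was counted for both genes.

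The windows of 4 genes are shown, for the 2 genes that followed the long-term reduction and were also called lower in the short-term test (SPCS3 and VEGFC), for the one with the most counts in long-term knockdown (FAT1) and for one with no count there (TRIML2). They are SPCS3 on the plus strand (chr4:176319716-176319965) and VEGFC (chr4:176792923-176793172), FAT1 (chr4:186726697-186726946) and TRIML2 (chr4:188109604-188109853) on the minus strand, each written 5′ to 3′, with capitals marking matches to the 4 motifs on either strand.
SPCS3: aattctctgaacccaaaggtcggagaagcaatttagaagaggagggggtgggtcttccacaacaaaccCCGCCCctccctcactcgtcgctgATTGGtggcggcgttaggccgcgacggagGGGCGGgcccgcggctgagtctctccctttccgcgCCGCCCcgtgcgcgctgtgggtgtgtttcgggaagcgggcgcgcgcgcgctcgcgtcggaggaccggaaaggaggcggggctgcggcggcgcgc
VEGFC: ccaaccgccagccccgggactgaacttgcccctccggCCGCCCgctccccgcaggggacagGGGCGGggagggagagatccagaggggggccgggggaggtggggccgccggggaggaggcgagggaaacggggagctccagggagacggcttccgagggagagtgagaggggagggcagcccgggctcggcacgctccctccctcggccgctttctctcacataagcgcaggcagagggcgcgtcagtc
FAT1: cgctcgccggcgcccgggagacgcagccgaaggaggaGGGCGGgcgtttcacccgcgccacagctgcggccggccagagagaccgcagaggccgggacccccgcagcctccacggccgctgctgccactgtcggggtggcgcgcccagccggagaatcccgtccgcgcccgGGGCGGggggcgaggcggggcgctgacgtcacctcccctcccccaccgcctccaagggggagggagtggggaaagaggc
TRIML2: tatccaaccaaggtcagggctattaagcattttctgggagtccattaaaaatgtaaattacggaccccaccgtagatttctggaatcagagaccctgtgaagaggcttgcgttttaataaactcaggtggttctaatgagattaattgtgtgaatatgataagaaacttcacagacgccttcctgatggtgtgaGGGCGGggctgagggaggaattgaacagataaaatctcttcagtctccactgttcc
The 3 windows of the genes with the higher levels are rich in CG, with 34 such dinucleotides in SPCS3, 22 in VEGFC and 32 in FAT1, whereas TRIML2 holds 5.

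In the long-term comparison all 31 genes tested had a log2 fold change below 0. Their median was -1.09, a ratio of 0.470, with quartiles of -1.67 and -0.69. The fitted values reached from -0.39 (AGA) to -3.10 (PDLIM3) among genes with counts in every group, while SORBS2 and TRIML2 had 0 counts in long-term knockdown and are given below as bounds, with which the median was still -1.09. The fit adds a prior count of 2, which draws the values of low-count genes such as PDLIM3 and TLR3 toward 0. The median over all 13959 genes tested was 0.00095. A gene was counted as following the common reduction when its log2 fold change was at or below -0.5 and its 3 knockdown libraries lay below its 3 nontarget libraries, and as escaping when the value was above -0.25. By this rule 26 genes followed, 5 lay between the limits and 0 escaped. The groups of TENM3 (-0.499) and CYP4V2 (-0.498) did not overlap and both genes just missed the limit, and 27 genes followed with RLE factors (the library scaling of DESeq2) or with the replicate number as a block. The combination of both criteria held for 13.4% of all genes tested, and an adjusted p below 0.05 in the lower direction for 26 of the 31 against 15.8% of all genes. Since the interval was chosen on this contrast, nothing is read from those shares.

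The reduction was present in each long-term knockdown library. The median ratio of the genes to their short-term nontarget mean was 0.518, 0.506 and 0.409 in the 3 long-term knockdown libraries, whereas the other 9 libraries lay between 0.854 and 1.04, the lowest of these being short-term knockdown replicate 3. The summed level of the 31 tested genes was 692, 699 and 600 CPM in long-term knockdown and 1328 to 1644 CPM in the other 9 libraries. As group means it was 1458 ± 141 CPM without and 1369 ± 35.3 with knockdown in short-term cells, and 1529 ± 107 without and 664 ± 55.2 with knockdown in long-term cells (SD, n = 3). Of the 31 genes tested, 25 had all 3 long-term knockdown libraries below all 9 others, as did 10.7% of all genes tested, and the exceptions were WDR17, AGA, TENM3, TRAPPC11, FAM149A and FRG1.

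Compared per exon length, the genes differed widely in level. In long-term nontarget cells SPCS3 (180 ± 46.3 TPM, counts scaled by exon length and library size) and DCTD (167 ± 6.31) were the highest and overlapped within their SD, followed by VEGFC (119 ± 11.1) and CDKN2AIP (103 ± 7.97), whose ranges of mean ± SD overlapped, and then by FAT1 (65.5 ± 5.30) and FRG1 (56.5 ± 14.1), which did not separate from each other (SD, n = 3). In long-term knockdown DCTD was at 69.2 ± 3.02 TPM and SPCS3 at 45.9 ± 1.27, with FRG1 (37.3 ± 13.6) and FAT1 (37.2 ± 7.48) next.

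Both genes of innate immunity followed. The interferon regulatory factor IRF2, a transcription factor, was at 19.3, 21.1 and 17.6 CPM in the long-term nontarget libraries and 9.94, 10.4 and 7.46 CPM in those with knockdown (long-term log2 fold change -1.02, SE 0.175). TLR3, which senses double-stranded RNA in endosomes, was a low-count gene with 5.23, 3.25 and 4.14 CPM in the long-term nontarget libraries and 0.693, 0.147 and 0 CPM in those with knockdown (log2 fold change -2.89, SE 0.435), against 3.36 to 7.44 CPM in the 6 short-term libraries.

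All 6 genes of DNA repair, chromatin and mitosis followed, with a median of -0.98 and a range of -1.60 to -0.60. DCTD, which supplies dUMP for thymidylate synthesis, was at 154, 147 and 142 CPM in short-term cells with the nontarget shRNA and 144, 131 and 141 with the FLCN shRNA, and at 158, 159 and 167 CPM in long-term cells with the nontarget shRNA and 74.3, 70.7 and 76.8 with the FLCN shRNA. It had the smallest SE of the 31 (long-term log2 fold change -1.12, SE 0.0897), and the long-term knockdown libraries stood clear of the other groups, which overlapped in part. CDKN2AIP, which binds the ARF tumor suppressor, had a lower value (-1.60, SE 0.239), with 91.1, 84.9 and 99.5 CPM in the long-term nontarget libraries and 26.3, 32.6 and 31.9 CPM in those with knockdown. Its short-term libraries were uneven, at 57.9 to 112 CPM without and 79.3 to 143 CPM with knockdown. CENPU, a centromere protein gene, was at 41.1, 36.4 and 27.8 CPM in the long-term nontarget libraries and 21.4, 20.4 and 16.1 CPM in those with knockdown (-0.85, SE 0.163), with no overlap. The chromatin reader ING2 had -1.23 (SE 0.196), the DNA glycosylase gene NEIL3 -0.68 (SE 0.158) and the primase-polymerase gene PRIMPOL -0.60 (SE 0.189). CENPU and PRIMPOL overlap at their ends on opposite strands, and the sources used here do not give the strand setting of the counting, so that reads in the overlap cannot be assigned.

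The genes of mitochondria, lipid metabolism and the lysosome had a median of -1.06, and 2 of 4 followed. ACSL1 (chr4:184755595-184826818), which couples long-chain fatty acids to coenzyme A, had one of the lowest fold changes. It was at 30.2, 37.8 and 32.7 CPM in short-term cells with the nontarget shRNA and 37.3, 30.0 and 38.9 with the FLCN shRNA, and at 36.5, 37.8 and 33.8 CPM in long-term cells with the nontarget shRNA and 4.97, 4.99 and 3.22 with the FLCN shRNA (long-term log2 fold change -2.93, SE 0.172). The 9 other libraries thus lay within 30.0 to 38.9 CPM. SLC25A4, which exchanges ADP and ATP across the inner mitochondrial membrane, was at 52.7, 44.6 and 44.4 CPM in the long-term nontarget libraries and 13.9, 15.4 and 16.6 CPM in those with knockdown (-1.61, SE 0.137). The fatty acid hydroxylase gene CYP4V2 just missed the limit (-0.498, SE 0.218), and the lysosomal amidase gene AGA lay between the limits (-0.39, SE 0.205). CYP4V2 overlaps KLKB1 on the same strand.

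Among genes of adhesion, polarity and the cytoskeleton, 5 of 6 followed, with values from -0.499 (TENM3) to -3.10 (PDLIM3). PDLIM3 and SORBS2 passed the count limit only through the groups in which they were higher. FAT1 (chr4:186587783-186726722), the atypical cadherin, was at 246, 231 and 438 CPM in short-term cells with the nontarget shRNA and 340, 297 and 327 with the FLCN shRNA, and at 278, 286 and 320 CPM in long-term cells with the nontarget shRNA and 208, 206 and 142 with the FLCN shRNA. The knockdown libraries were the lowest 3 of the 12, but the reduction was among the smaller ones (-0.67, SE 0.201). PDLIM3, a PDZ and LIM domain protein of actin-rich structures, was at 5.09, 5.11 and 5.95 CPM in the long-term nontarget libraries and 0.231, 0.734 and 0.170 CPM in those with knockdown (-3.10, SE 0.324). SORBS2, an adaptor at actin and cell junctions, was at 1.34, 1.55 and 1.81 CPM in the long-term nontarget libraries, 34 counts in all, and at 0 in all 3 with knockdown, which is at least 11.2-fold lower against a floor of 3 counts over the group. STOX2, a storkhead-box gene of the winged-helix kind, was also listed in this group, and without it 4 of 5 followed. WWC2 and STOX2 are described with the short-term comparison below.

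TENM3 (chr4:182143987-182803024), a teneurin that links cells across the membrane, just missed the limit of -0.5. It was at 16.5, 17.0 and 19.6 CPM in short-term cells with the nontarget shRNA and 13.8, 13.7 and 15.2 with the FLCN shRNA, and at 24.5, 26.0 and 25.5 CPM in long-term cells with the nontarget shRNA and 19.2, 16.3 and 18.0 with the FLCN shRNA. The long-term knockdown libraries lay below long-term nontarget cells (-0.499, SE 0.128) yet above all 3 short-term knockdown libraries, a position no other of the 31 genes held. Several noncoding genes overlap TENM3.

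Genes of secretion, trafficking and protein modification followed in 6 of 7 cases, with a median of -1.09. SPCS3 (chr4:176319964-176332245), a subunit of the signal peptidase complex, had the highest CPM of the role group and a log2 fold change of -1.83 (SE 0.144). CFAP97, a gene named for cilia and flagella, was at 52.0, 34.7 and 37.0 CPM in the long-term nontarget libraries and 22.3, 17.0 and 15.9 CPM in those with knockdown (-1.14, SE 0.158). The sorting nexin gene SNX25 had -1.53 (SE 0.154), ANKRD37 -1.09 (SE 0.289), RWDD4 -0.86 (SE 0.172) and UFSP2, which encodes a protease that removes the ubiquitin-like modifier UFM1, -0.69 (SE 0.189). CFAP97 and SNX25 overlap on opposite strands, as do ANKRD37 and UFSP2. TRAPPC11, a subunit of a vesicle tethering complex, lay between the limits at -0.42 (SE 0.172), although it starts head to head with RWDD4. The difference within this pair was not tested.

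VEGFC was the 1 secreted factor that met the count rule, among 3 listed (long-term log2 fold change -1.73, SE 0.130). FRG1, the 1 of 4 genes listed for the chromosome end with enough counts, was at 28.9, 32.1 and 19.4 CPM in the long-term nontarget libraries and 18.5, 26.4 and 13.6 CPM in those with knockdown (-0.44, SE 0.211), so that the groups overlapped. FRG1 has 9 pseudogenes named after it, among which reads could be shared, and its value is uncertain. Of the 4 genes without a role group, WDR17 (-0.90, SE 0.309), FAM149A (-0.81, SE 0.335) and TRIML2 followed. TRIML2 had 55 counts over the long-term nontarget libraries and 0 over those with knockdown, at least 18.1-fold lower against the same floor, with 2.14, 3.41 and 2.20 CPM in the long-term nontarget libraries and 0.253 to 1.1 CPM in the short-term ones. ASB5, too low for the model, had 7, 6 and 7 counts in the long-term nontarget libraries and 1, 0 and 3 in those with knockdown. No long-term knockdown library reached 10 counts for ASB5, PDLIM3, SORBS2, TLR3 or TRIML2, so these 5 genes met the count rule through the other groups. TRIML2 met it through the long-term nontarget libraries alone (16, 22 and 17 counts).

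**Figure D1:**
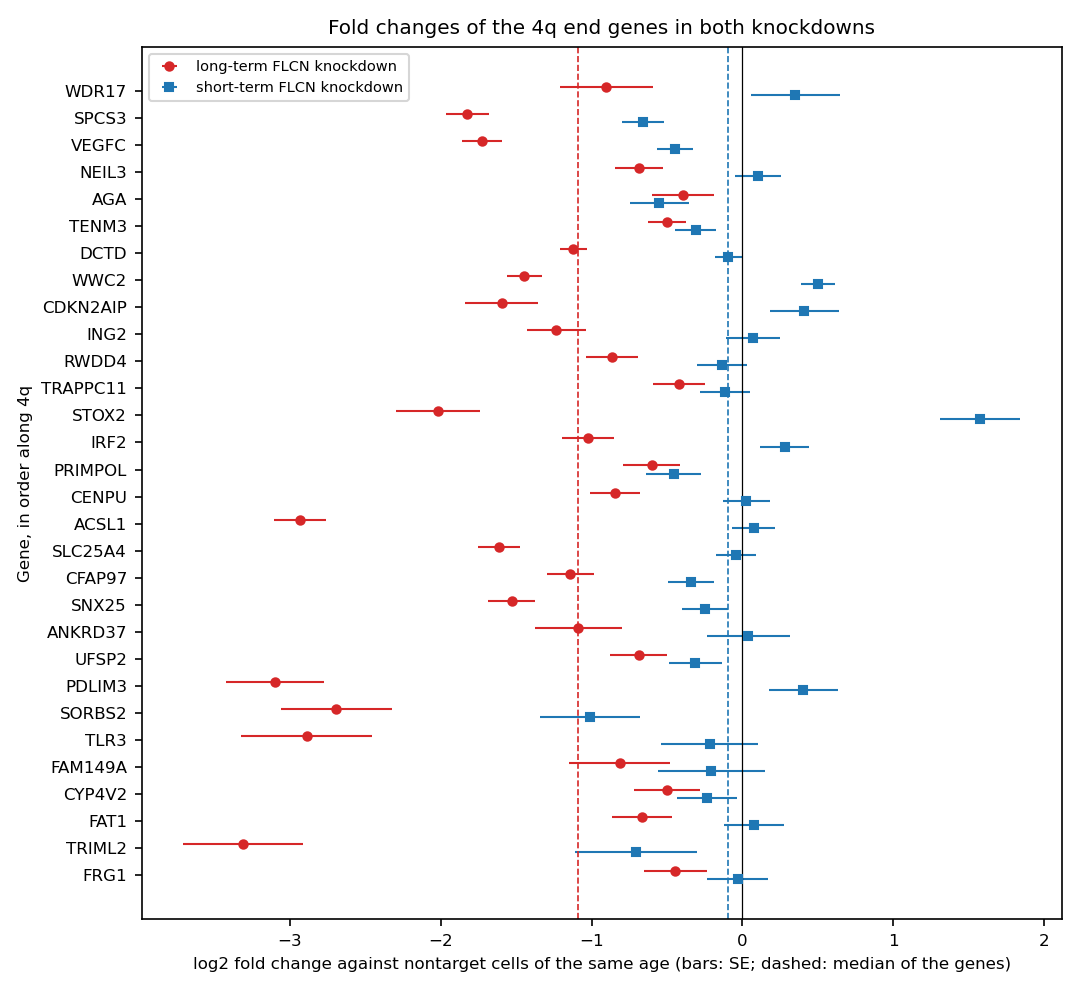
Log2 fold changes of 30 of the 31 genes, in order along 4q from top to bottom, for long-term (red circles) and short-term (blue squares) FLCN knockdown, each against nontarget cells of the same age, with bars of 1 SE and dashed lines at the medians of all 31, -1.09 and -0.09. All red circles lie left of 0, 17 of them at or beyond -1, whereas the blue squares scatter on both sides of 0 with STOX2 farthest to the right at 1.58.

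The short-term comparison used libraries that played no part in choosing the interval, and it was tested with edgeR's quasi-likelihood test over all 13959 genes. The 31 genes had a median of -0.09 on the log2 scale, against 0.00013 over all genes, with 18 genes below and 13 above 0 and 25 within 0.5 of it in either direction. At an adjusted p below 0.05, 4 genes differed, 2 lower and 2 higher, against 10.3% of all genes in either direction, 4.71% lower and 5.62% higher. The knockdown libraries lay below all nontarget libraries for 10 genes (15% of all genes tested) and above them for 2 (15.2%).

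SPCS3 and VEGFC fell. SPCS3 was at 289, 294 and 291 CPM in short-term cells with the nontarget shRNA and 196, 169 and 188 with the FLCN shRNA, and at 444, 260 and 324 CPM in long-term cells with the nontarget shRNA and 98.1, 93.8 and 97.9 with the FLCN shRNA. Both knockdown groups were below both nontarget groups, with the long-term knockdown libraries lowest, and the short-term log2 fold change was -0.66 (SE 0.139, adjusted p = 0.00472, edgeR). VEGFC (chr4:176683538-176792727) was at 121, 124 and 92.5 CPM in short-term cells with the nontarget shRNA and 82.2, 90.5 and 74.9 with the FLCN shRNA, and at 72.5, 81.3 and 85.4 CPM in long-term cells with the nontarget shRNA and 25.1, 22.7 and 23.7 with the FLCN shRNA. Its short-term log2 fold change was -0.45 (SE 0.120, adjusted p = 0.0228, edgeR), its short-term knockdown and long-term nontarget libraries overlapped, and the call was lost in 4 of the 12 fits that left out 1 library (the highest adjusted p was 0.126, when replicate 2 of short-term nontarget cells was omitted).

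WWC2 and STOX2 rose. WWC2, a scaffold of the Hippo pathway, was at 71.1, 75 and 95.1 CPM in short-term cells with the nontarget shRNA and 106, 111 and 124 with the FLCN shRNA, and at 114, 113 and 109 CPM in long-term cells with the nontarget shRNA and 39.2, 42.8 and 40.9 with the FLCN shRNA. The short-term log2 fold change was 0.50 (SE 0.112, adjusted p = 0.00704, edgeR) and the long-term one -1.45 (SE 0.116). The WWC2 call was lost in 1 of 12 fits, without short-term nontarget replicate 1 (adjusted p = 0.0578). STOX2 was at 1.5, 2.13 and 1.89 CPM in short-term cells with the nontarget shRNA and 4.93, 6.73 and 6.55 with the FLCN shRNA, and at 5.09, 4.8 and 6.21 CPM in long-term cells with the nontarget shRNA and 1.39, 1.32 and 0.509 with the FLCN shRNA. It thus had the largest short-term rise of the 31 (1.58, SE 0.264, adjusted p = 7.79e-04, edgeR) and a long-term log2 fold change of -2.02 (SE 0.279), with short-term knockdown and long-term nontarget libraries at like levels. The calls of SPCS3 and STOX2 held in all 12 fits that left out 1 library (highest adjusted p 0.0272 and 0.00867, edgeR). Among the genes that did not pass the test, SORBS2 had -1.01 (adjusted p = 0.0655) and AGA -0.55 (adjusted p = 0.0851) in the same fit, while ACSL1 had 0.08 (adjusted p = 0.814).

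**Figure D2:**
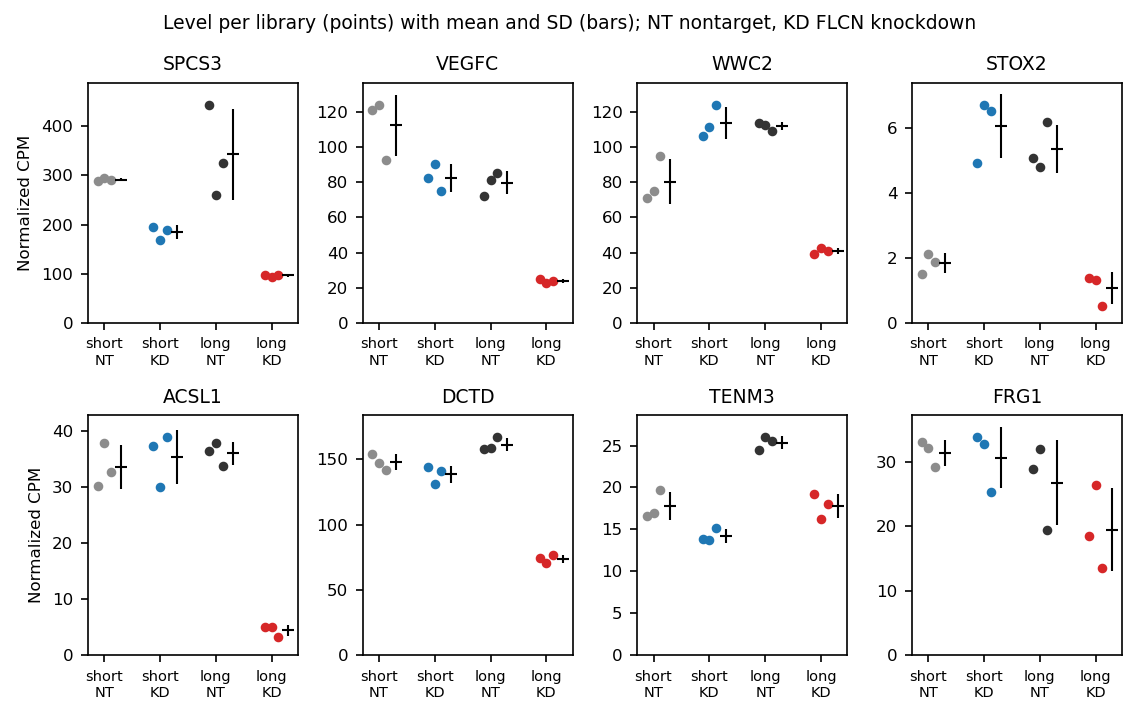
Normalized CPM of 8 genes in each library (points) with the group mean and SD (bars, n = 3), for short- and long-term nontarget (NT) and FLCN knockdown (KD) cells, each panel starting at 0. In 6 panels the 3 long-term knockdown points are the lowest of the 12, while in TENM3 they lie among the short-term points and in FRG1 they overlap the other groups.

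The remaining comparisons share libraries with the contrast that chose the interval and are descriptions. From short-term to long-term nontarget cells the median of the 31 log2 fold changes was 0.05, with 15 genes below and 16 above 0. By adjusted p below 0.05, 6 were counted as different (7.55% of all genes), 5 of them higher (3.17%) and 1 lower (4.38%). The highest values were those of TRIML2 (1.47) and STOX2 (1.42). TRIML2 met the count rule only through the long-term nontarget libraries, so nothing is read from its value. From short-term to long-term knockdown cells the median was -0.93, 27 genes were counted as lower (15.2% of all genes) and 27 had all long-term libraries below the short-term ones (19.8% of all genes), with TENM3 (0.32) the one gene above 0 and FAM149A near 0 (-0.0004). The long-term nontarget cells, which had been passaged as long, had levels near those of short-term cells, with a median library ratio of 0.980 to 1.02.

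Along chromosome 4 the long-term log2 fold changes stayed near 0 over most of its length. The median was -0.08 for 381 genes that start before 150 Mb and 0.02 for 49 genes between 150 and 170 Mb. In successive windows of 5 Mb from 165 Mb to 190 Mb it was -0.33 (14 genes), -0.86 (9 genes), -0.90 (5 genes), -1.08 (13 genes) and -1.14 (13 genes). The short-term medians of the last 4 of these windows were 0.15, -0.45, 0.07 and -0.22. The lower values thus began before the start of the interval, which is also the start of the third of these windows. Of the 9 genes from DDX60 to MFAP3L, 3 had groups that did not overlap and were lower, and the 6 others ranged from -0.22 to 0.26. The 3 were DDX60 (168.22 Mb, -1.02), PALLD (168.50 Mb, -0.77) and MFAP3L (169.99 Mb, -0.61). GALNTL6 (171.81 Mb, -1.02) had groups that overlapped. AADAT, which lies between MFAP3L and GALNTL6 at 170.06 Mb, was above 0 (0.58, SE 0.172), whereas GALNT7 (173.17 Mb, -0.83), HMGB2 (173.33 Mb, -0.54), SAP30 (173.37 Mb, -0.86) and HAND2 (-2.05) had groups that did not overlap. These 9 genes outside the interval were chosen for naming after their values were seen.

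Just outside the start, the F-box gene FBXO8 had 17.0, 14.4 and 15.5 CPM in the long-term nontarget libraries and 5.43, 7.04 and 4.92 CPM in those with knockdown (-1.39, SE 0.163). The centrosomal gene CEP44 had 10.1, 9.76 and 8.28 CPM against 4.51, 6.46 and 2.54 CPM (-0.99, SE 0.231). HPGD, which degrades prostaglandins, had 1.61, 0.619 and 1.55 CPM against 1.39, 1.91 and 1.02 CPM (0.14, SE 0.508). Just inside were WDR17, with 2.55, 2.32 and 2.46 CPM against 1.16, 0.734 and 1.70 CPM, ASB5 and SPCS3. The genes on both sides of the limit were therefore alike in direction, HPGD excepted, and the start of the interval does not mark where the lower values start.

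**Figure D3:**
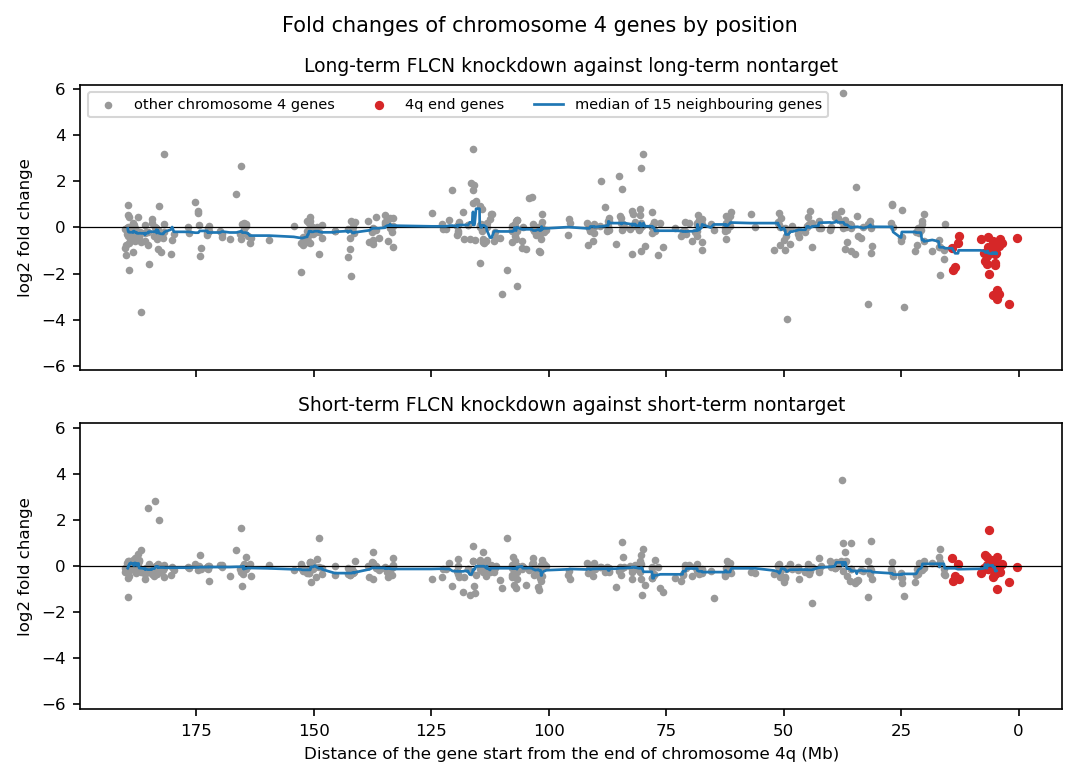
Log2 fold change of each tested protein-coding gene of chromosome 4 that met the count limit, against the distance of its start from the end of 4q in Mb (red, the 31 genes described; grey, all others), for long-term knockdown above and short-term knockdown below, with a running median of 15 neighbouring genes. In the upper panel the running median lies mostly near 0 and is lower over the last part drawn, whereas in the lower panel it stays near 0. The line needs 15 genes around each point and therefore stops at PDLIM3, 4.71 Mb from the end.

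Of the 164 other annotated genes of the interval (noncoding genes and pseudogenes), 41 had at least 1 count and 2 were tested. Their summed level stood at 20.1, 17.8 and 19.3 CPM in short-term cells with the nontarget shRNA and 18.5, 14.6 and 13.8 with the FLCN shRNA, and at 17.0, 16.1 and 22.1 CPM in long-term cells with the nontarget shRNA and 7.86, 7.78 and 11.2 with the FLCN shRNA. The long-term knockdown libraries were the lowest 3 for these genes as well. The 2 tested genes were AC019163.1 (long-term log2 fold change -1.24, SE 0.241), which overlaps the start of SPCS3 on the other strand, and AC098864.1 (-0.86, SE 0.342), which overlaps the start of TENM3 on the other strand. Only reads within these overlaps cannot be assigned without the strand.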

How the data were processed

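RNA libraries of 12 HK2 cultures were made by the authors with a TruSeq RNA kit and sequenced on a MiSeq. Reads were trimmed with fastp, mapped with STAR and counted with featureCounts, and the submitters' processing notes name GRCh38. Versions, annotation release and strand setting are not given in the sources used here. The deposited raw values are counts per gene, and the per-library count files differed from the series table in 0 values. The deposited normalized columns are a rounded score made by the authors with DESeq2 and were not used.

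IDs were matched to GENCODE release 29, 55661 with the same version and 2361 with another version. Coordinates are printed for the former only. Genes passing filterByExpr (13959, 99.8% of counts) were fitted in R 4.3.3 with edgeR 4.0.16 (TMM, quasi-likelihood test, prior count 2, all 12 libraries in 1 model), with two-sided p-values adjusted by Benjamini-Hochberg over all genes tested. The SE is the log2 fold change divided by the square root of F. CPM were scaled by TMM, and TPM used summed exon lengths. DESeq2 1.42.0 was an alternative. The biological coefficient of variation was 12.0%, and the chi-square per degree of freedom between replicates was 2.07 to 11.9, more than counting error.

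Same-numbered libraries deviated together in long-term nontarget and knockdown cells (correlations 0.284, 0.123 and 0.458 for replicates 1 to 3), in short- and long-term knockdown cells (0.223, 0.292 and 0.455) and in short-term knockdown and long-term nontarget cells (0.279, 0.150 and 0.467), but not in the short-term pair (0.017, 0.111 and 0.054). Nor did short-term nontarget libraries with those of long-term nontarget (-0.034, 0.077 and 0.025) or long-term knockdown (-0.046, 0.019 and -0.101). Correlations between libraries of different numbers were not computed. Values per library were given for the 10 followers of highest mean CPM, the 5 of lowest fold change, genes called in the short-term comparison, and 3 genes on each side of the start, and for IRF2, TENM3 and FRG1, chosen after their values were seen. One of the genes so named is not reported here, though counts and medians include it. The members, role lists and limits were chosen with earlier results of these data known.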

Additional observations from a re-analysis of the deposited data

Results flagged for a closer look

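In 2 of the 31 genes tested at the chromosome end, every library of the short-term knockdown and every library of the long-term knockdown moved in opposite directions from their own nontarget cells. The same held for 522 of all 13959 genes tested (3.74%), so that nothing particular to the chromosome end is read from these 2. WWC2 had a log2 fold change of 0.50 after short-term and -1.45 after long-term knockdown. STOX2 had 1.58 after short-term and -2.02 after long-term knockdown. The difference between the comparisons was not tested for either gene, since the long-term values were used to choose the interval.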

How the results depend on the processing

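The long-term median ranged from -1.15 to -1.03 over all alternatives, the short-term median from -0.11 to -0.02, and the count of genes called lower in the long-term comparison from 18 of 21 genes (mean of at least 10 CPM) to 28. Escape was recomputed under 4 alternatives (other limits, the smaller prior count, the block and RLE factors), with 0 genes in each. With the limits at -0.75 and -0.1, 22 genes followed, with RLE factors or the block 27, and with a smaller prior count, chosen after seeing the data, 28. Leaving out 1 library at a time, the count of genes called in the short-term comparison was 2 to 5, with 2 (SPCS3 and STOX2) without short-term nontarget replicate 1. The median for ageing without knockdown (0.05) was 0.0124 with DESeq2, 0.0142 without a filter, 0.0117 for genes with a mean count of 50 or more, -0.0340 for those with a mean CPM of 10 or more, and -0.0371 to 0.0609 when 1 library was left out. Short-term values were recomputed for 17 genes, and those that changed sign when 1 library was left out were CENPU (range -0.0861 to 0.139), SLC25A4 (-0.136 to 0.0326), TLR3 (-0.436 to 0.0671) and FAT1 (-0.0905 to 0.429), none of which was called. The causes were not tested.

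With the replicate number as a block, 6 genes were called in the short-term comparison, the added ones being AGA and CDKN2AIP (adjusted p = 0.0396, edgeR), although the short-term libraries shared only a number. A fit of the 2 short-term groups alone, without a block, called 5 genes, the added one being AGA. In the long-term comparison, where same-numbered libraries deviated together, the block gave 28 genes called lower in place of 26, and in long- against short-term knockdown cells 28 in place of 27. Depth limits the low genes: at 0 counts SORBS2 and TRIML2 have only a bound.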
